A study of Mus musculus with 6 samples.

Results

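The genes described here are 10 members of B-cell receptor signalling, the kinases Syk, Btk, Lyn and Blk, the phospholipase gene Plcg2, the co-receptors Cd22, Cd72 and Cr2, and the phosphatases Ptpn6 and Ptprc, the last of which encodes CD45. They were read in RNA of sorted calvarial suture cells, from array features whose only gene symbol is a member, and 9 of the 10 had such a feature, 1 each, among 19938 genes tested. Lyn was not analysed here. The data come from 6 arrays, of which 3 held Axin2+/GFP+ cells and 3 held Axin2-/GFP- cells, and for every array the cells of 6 to 8 mice were pooled at postnatal day 28. All mice had a mixed C57BL/6J, CD-1 and B6CBAF2 background and carried Axin2rtTA, which puts a doxycycline-dependent activator under Axin2 control, and TRE-H2BGFP, a histone-GFP reporter that the activator switches on. All received doxycycline from postnatal day 25 to postnatal day 28, and cells freed with collagenase were sorted by GFP intensity. Marking depended on Axin2 and on the reporter, and the sources used here name no antibody against blood cells in this sort.

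The question that the design poses is how cells expressing Axin2 differ from the other cells of the suture. The deposited values are log2 array signals after RMA, and a log2 change below is the mean of Axin2+/GFP+ minus the mean of Axin2-/GFP- samples. Axin2 itself had a log2 value of 2.83 in Axin2+/GFP+ cells and 2.28 in Axin2-/GFP- cells, a change that limma did not call (adjusted p = 0.0802). The paper reports Axin2 as significantly higher in the marked cells, by microarray and by quantitative PCR, and states no adjustment over genes. The missing call here is therefore no evidence that the sort failed to enrich Axin2. The upper quartile of the values was 3.63 to 3.72 on the Axin2+/GFP+ arrays and 3.94 to 3.98 on the Axin2-/GFP- arrays, so the genes tested did not share one distribution. Over all genes the median log2 change was 0.14, and it was 0.25 for genes with a mean under 3 and -0.57 for genes with a mean of 5 or more. As a level for genes not expected in these cells, 1194 olfactory and vomeronasal receptor genes had medians of 1.75 to 1.83 in the Axin2+/GFP+ samples and 1.43 to 1.48 in the Axin2-/GFP- samples. Cd72 had the same mean as Axin2 in Axin2+/GFP+ cells, 2.83, and 7.04% of these receptor genes reached it. Axin2 was thus also near background, and its change may be a lower limit of its size. In cells pooled before RNA extraction, fewer cells of a type and less RNA per cell cannot be told apart. The labels call the samples biological replicates, and a p-value here covers only how far these 6 differ from one another.

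When antigen binds the B-cell receptor, Src family kinases phosphorylate its signalling chains, Syk docks on them, and Btk and phospholipase C gamma 2 carry the signal to calcium and protein kinase C. CD22 and CD72 recruit the phosphatase SHP-1, encoded by Ptpn6, which dampens the signal, while complement receptor 2 lowers its threshold and CD45 keeps the Src family kinases ready to act. Blk, Cd22, Cd72 and Cr2 are known mainly from B cells, whereas Syk, Btk, Plcg2, Ptpn6 and Ptprc are also used by myeloid cells, and CD45 by nearly all white blood cells.

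Promoter windows of 8 members, from 250 bases before to 50 bases after a gene start, were found in the RefSeq table (build GRCm38.p6), and those of 4 are shown, those of 3 members that were lower, Cd72, Btk and Cd22, and of Ptpn6, which was not called, so that each motif found can be seen. Capitals mark short motifs found on either strand, GAGGAA (a core bound by PU.1, read as TTCCTC on the other strand), CAGGTG (an E-box bound by E2A, read as CACCTG) and CCCNNGGG (the core of the EBF1 motif). The windows all lie on the minus strand, at chr4:43454577-43454876 for Cd72, chrX:134583091-134583390 for Btk, chr7:30878979-30879278 for Cd22 and chr6:124738660-124738959 for Ptpn6, and read 5′ to 3′ as follows.
Cd72: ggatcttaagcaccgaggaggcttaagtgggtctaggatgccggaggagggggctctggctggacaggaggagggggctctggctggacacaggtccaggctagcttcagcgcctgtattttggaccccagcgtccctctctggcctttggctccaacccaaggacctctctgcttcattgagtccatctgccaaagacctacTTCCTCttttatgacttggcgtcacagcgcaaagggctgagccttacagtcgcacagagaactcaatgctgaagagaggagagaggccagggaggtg
Btk: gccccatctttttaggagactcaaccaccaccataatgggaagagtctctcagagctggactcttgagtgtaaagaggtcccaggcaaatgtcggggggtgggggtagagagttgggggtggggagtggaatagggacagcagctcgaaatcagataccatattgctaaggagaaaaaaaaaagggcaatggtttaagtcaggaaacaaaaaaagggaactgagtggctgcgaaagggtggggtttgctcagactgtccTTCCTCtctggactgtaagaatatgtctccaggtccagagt
Cd22: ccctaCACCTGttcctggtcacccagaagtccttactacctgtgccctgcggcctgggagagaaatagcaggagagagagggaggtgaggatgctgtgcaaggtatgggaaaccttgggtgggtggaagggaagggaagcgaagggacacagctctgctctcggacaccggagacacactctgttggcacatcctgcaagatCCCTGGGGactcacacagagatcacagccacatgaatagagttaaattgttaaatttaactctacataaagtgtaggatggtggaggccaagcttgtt
Ptpn6: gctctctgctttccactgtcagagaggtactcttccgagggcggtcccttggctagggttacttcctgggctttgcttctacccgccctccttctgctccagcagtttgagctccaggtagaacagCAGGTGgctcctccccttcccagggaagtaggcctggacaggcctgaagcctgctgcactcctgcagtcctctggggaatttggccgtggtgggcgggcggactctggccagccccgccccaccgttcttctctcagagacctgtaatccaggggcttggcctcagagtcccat

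The 8 matched members had 10 windows in all. GAGGAA was in 4 of them, those of Btk, Cd72, Ptprc and Syk, against 28.3% of 32851 mouse windows of the same length. CAGGTG was in 6 windows, those of Cd22, Cr2, Plcg2, Ptpn6 and both of Syk, against 20.2% of all windows. CCCNNGGG was in 1 window, that of Cd22, against 13.7%, and the octamer ATGCAAAT was in 0, against 1.74%. The motifs do not overlap in the 4 windows shown, and a match describes the letters only.

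Of the 9 members measured, 7 were lower in Axin2+/GFP+ cells and 0 were higher at an adjusted p under 0.05 in limma, against 11.4% of all genes called lower and 4.64% called higher. Before adjustment, at p under 0.05, limma gave 7 lower and 0 higher, as did the methods' t-test. The 7 were Syk, Btk, Blk, Plcg2, Cd22, Cd72 and Ptprc, with log2 changes between -4.88 and -1.41, and Cr2 and Ptpn6 were not called. The median log2 change of the 9 was -1.76, against 0.14 over all genes. Many of all genes were dim, and a filter on dim genes (mean log2 above 2.64) left 11030, of which 2325 were called lower and 562 higher. Under that filter the median log2 change was -0.13 over all genes and -1.76 over the members. There 7 members were lower and 0 higher, and Cr2 had no value. In the same 7 genes every Axin2+/GFP+ sample lay below every Axin2-/GFP- sample, which held for 17.8% of all genes, while 0 members lay wholly above, against 23.1%. The 4 members known mainly from B cells had a median log2 change of -2.71, with 3 of them lower, and the 5 that myeloid cells also use had a median of -1.55, with 4 lower. In Axin2+/GFP+ cells the B-cell members lay near the level of the receptor genes, so the first of these medians is limited by background. In the exact two-sided permutation test over samples each of the 7 had p = 0.1, the smallest that 3 against 3 allows.

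**Figure D1:**
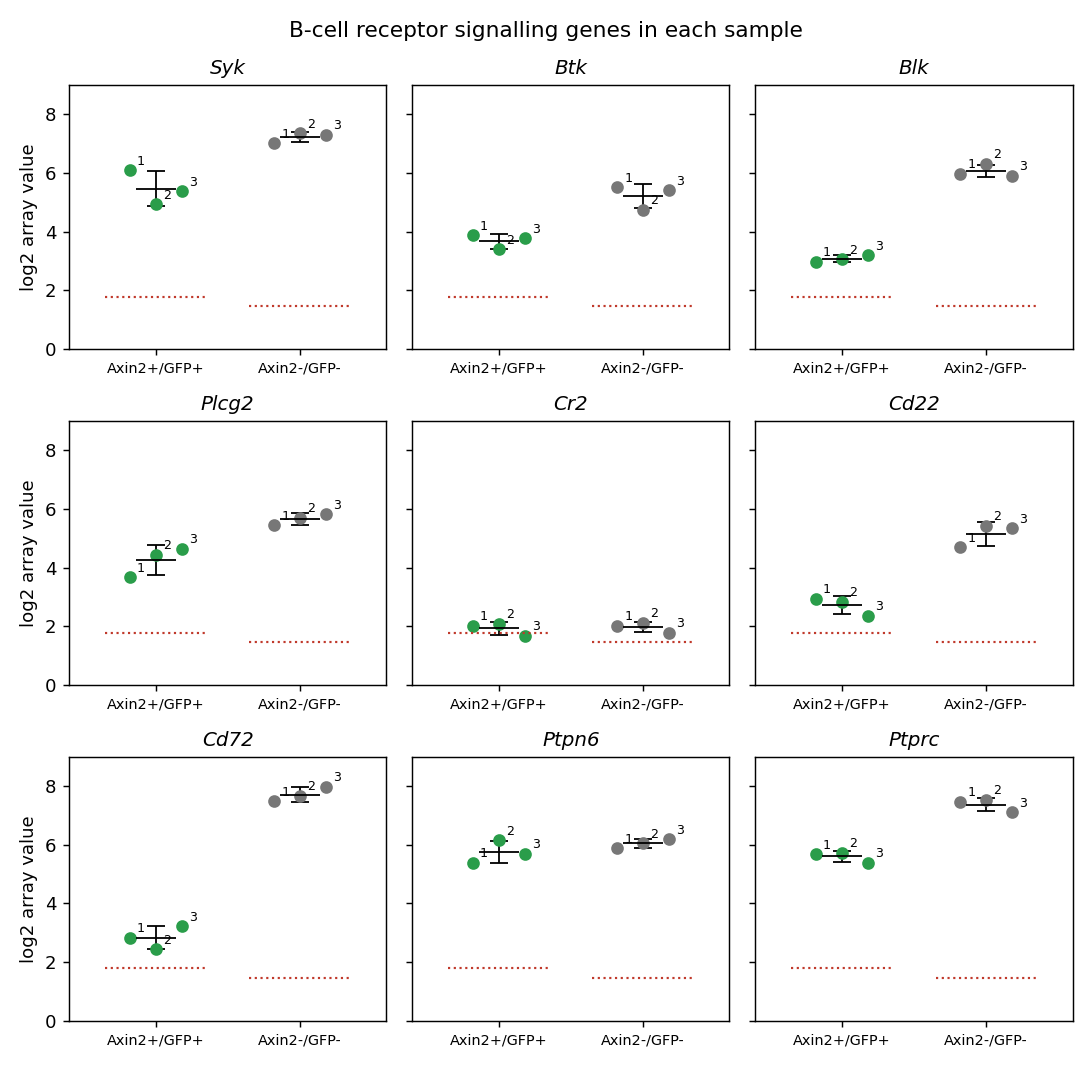
Log2 array value (vertical axis) of each member in the 3 Axin2+/GFP+ samples (green) and the 3 Axin2-/GFP- samples (grey), numbered by replicate, with black bars for mean ± SD and a red dotted line for the receptor genes' median level in that sort. The green points lie wholly below the grey ones in all panels but those of Cr2 and Ptpn6.

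Syk (feature 10405216), the kinase that docks on the phosphorylated receptor chains, had log2 values of 6.09, 4.94 and 5.38 in the Axin2+/GFP+ samples, against 7.02, 7.35 and 7.31 in the Axin2-/GFP- samples. The sorts did not overlap, and replicate 1 was the highest of the Axin2+/GFP+ samples, 0.92 below the lowest Axin2-/GFP- sample. The log2 change was -1.76 (standard error, SE, 0.28, limma adjusted p = 0.00495), a 3.38-fold lower signal. Btk (feature 10606694), the Tec family kinase whose loss blocks B-cell maturation, had log2 values of 3.88, 3.40 and 3.77 in Axin2+/GFP+ samples and 5.51, 4.76 and 5.42 in Axin2-/GFP- samples. Again the sorts were apart, with replicate 2 the lowest in each. Its log2 change was -1.55 (SE 0.24, limma adjusted p = 0.0042). The level of Btk was reached by 1.01% of the receptor genes in Axin2+/GFP+ cells and 0% in Axin2-/GFP- cells, so this too may be a lower limit.

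Blk (feature 10420758), a Src family kinase named for B lymphocytes, had the narrowest spread among Axin2+/GFP+ samples, with log2 values of 2.99, 3.06 and 3.21, against 5.97, 6.32 and 5.91 in Axin2-/GFP- samples. A gap of 2.71 separated the sorts. Its log2 change of -2.99 (SE 0.18, limma adjusted p = 5.27e-05) is a lower limit of its size, since in Axin2+/GFP+ cells the level of Blk was reached by 4.69% of the receptor genes, and in Axin2-/GFP- cells by 0%. Plcg2 (feature 10575799), which encodes the phospholipase that Btk activates, had log2 values of 3.67, 4.43 and 4.65 in Axin2+/GFP+ samples, against 5.44, 5.70 and 5.82 in Axin2-/GFP- samples. The sorts did not overlap, and the gap of 0.80 was the smallest of the 7 lower members. Its log2 change was -1.41 (SE 0.26, limma adjusted p = 0.00926), and the call was lost after quantile normalization (-0.89, adjusted p = 0.0828) and cyclic loess (-0.88, adjusted p = 0.0546). The methods' t-test with Benjamini-Hochberg adjustment, in which each gene has only its own spread, called neither Plcg2 nor Syk nor Btk, with adjusted p of 0.0920, 0.0815 and 0.0707.

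Cd72 (feature 10512470), an inhibitory co-receptor of B cells, had the most negative measured change of the members. Its log2 values were 2.83, 2.44 and 3.22 in Axin2+/GFP+ samples and 7.48, 7.66 and 7.98 in Axin2-/GFP- samples. The gap between the sorts was 4.27, more than the whole range within either. The log2 change was -4.88 (SE 0.24, limma adjusted p = 1.97e-05). Cd22 (feature 10562132), the sialic acid-binding inhibitory co-receptor, had log2 values of 2.94, 2.84 and 2.36 in Axin2+/GFP+ samples, against 4.69, 5.43 and 5.34 in Axin2-/GFP- samples. Its sorts were 1.74 apart, with replicate 1 the lowest of the Axin2-/GFP- samples. The log2 change was -2.44 (SE 0.25, limma adjusted p = 0.000666). The level of Cd72 was reached by 7.04% of the receptor genes in Axin2+/GFP+ cells and that of Cd22 by 9.30%, and neither was reached by any in Axin2-/GFP- cells (0%). The changes of both genes are therefore lower limits of their size, and no fold is given.

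Cr2 (feature 10361292), complement receptor 2 of mature B cells and follicular dendritic cells, was dim in both sorts. Its log2 values were 2.02, 2.09 and 1.68 in Axin2+/GFP+ samples and 2.03, 2.12 and 1.78 in Axin2-/GFP- samples. The sorts overlapped almost fully, and 41.3% of the receptor genes in Axin2+/GFP+ cells and 19.6% in Axin2-/GFP- cells were at least as bright. The log2 change of -0.04 (95% interval -0.47 to 0.39, adjusted p = 0.877 from limma, exact permutation p = 0.6) had no stable sign, since it was 0.08 without Axin2+/GFP+ replicate 3 and 0.03 without Axin2-/GFP- replicate 2. A difference in Cr2 was not detectable at this signal.

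Ptprc (feature 10358224), which encodes CD45, had log2 values of 5.68, 5.73 and 5.39 in Axin2+/GFP+ samples, against 7.46, 7.54 and 7.11 in Axin2-/GFP- samples. The sorts were 1.38 apart, and replicate 3 was the lowest in each. The log2 change was -1.77 (SE 0.19, limma adjusted p = 0.000781), a 3.41-fold lower signal. CD45 RNA was thus measured in both sorts, since 0% of the receptor genes were as bright as Ptprc in either.

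Ptpn6 (feature 10547769), which encodes the phosphatase SHP-1, had log2 values of 5.39, 6.15 and 5.70 in Axin2+/GFP+ samples and 5.88, 6.06 and 6.19 in Axin2-/GFP- samples. The sorts overlapped, because replicate 2 of the Axin2+/GFP+ samples lay above replicates 1 and 2 of the Axin2-/GFP- samples. The log2 change was -0.30 (95% interval -0.80 to 0.21, adjusted p = 0.362 from limma, exact permutation p = 0.3) on the deposited values, and it turned to 0.27 after quantile normalization and 0.30 after cyclic loess. As for Ptprc, 0% of the receptor genes were as bright in either sort.

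The size of the change was compared between members within each array, where a scaling factor common to the array drops out. Of the 36 pairs of members, 24 had a difference between both genes that did not overlap between the sorts, against 38.4% of all gene pairs. Of the pairs with Cr2 7 of 8 did not overlap, and of those with Ptpn6 7 of 8. These set a lower member against a gene that was not called, and so restate the calls of single genes. Every other pair that did not overlap held Cd72 or Blk, which had the most negative measured changes, themselves lower limits of size. Such pairs also restate changes of single genes. The count of 24 is therefore not a result about the members as a set. For Ptpn6 minus Ptprc, the 2 phosphatases, the difference in log2 value was -0.29 to 0.42 in Axin2+/GFP+ samples and -1.58 to -0.92 in Axin2-/GFP- samples, and the changes of the 2 genes differed by 1.47 (exact two-sided permutation p = 0.1, the smallest possible). Syk and Btk, which act in sequence, had a root mean square difference of 0.40 between their centred log2 values over the 6 samples, and Syk and Ptprc stood equally close at 0.40, the lowest values among the called members.

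Within a sort, the members did not share one highest or lowest sample. In the Axin2+/GFP+ samples each replicate was the highest for 3 members and the lowest for 3. In the Axin2-/GFP- samples replicate 1 was the lowest for 5 members and replicate 2 the highest for 5. The mean deviation of the 9 members from their sort's mean was -0.03 to 0.02 in Axin2+/GFP+ samples and -0.11 to 0.06 in Axin2-/GFP- samples.

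The scaling of the arrays moved the size of the changes. The median log2 change of the members was -1.76 on the deposited values. Median centring gave -1.86, quantile normalization -1.27, cyclic loess -1.13 and centring of each array on the receptor genes -2.07. The median over all genes was 0.14, 0.03, 0.05, 0.01 and -0.18 under the same 5 scalings. Genes called over the whole table were 926 higher and 2265 lower on the deposited values. Median centring gave 459 higher and 2719 lower, quantile normalization 863 and 1165, cyclic loess 901 and 1373, and centring on the receptor genes 210 and 3980. After cyclic loess the log2 changes of Syk (-1.13) and Ptprc (-1.14) were smaller than on the deposited values by over 1.5 times, and both genes were still called.

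**Figure D2:**
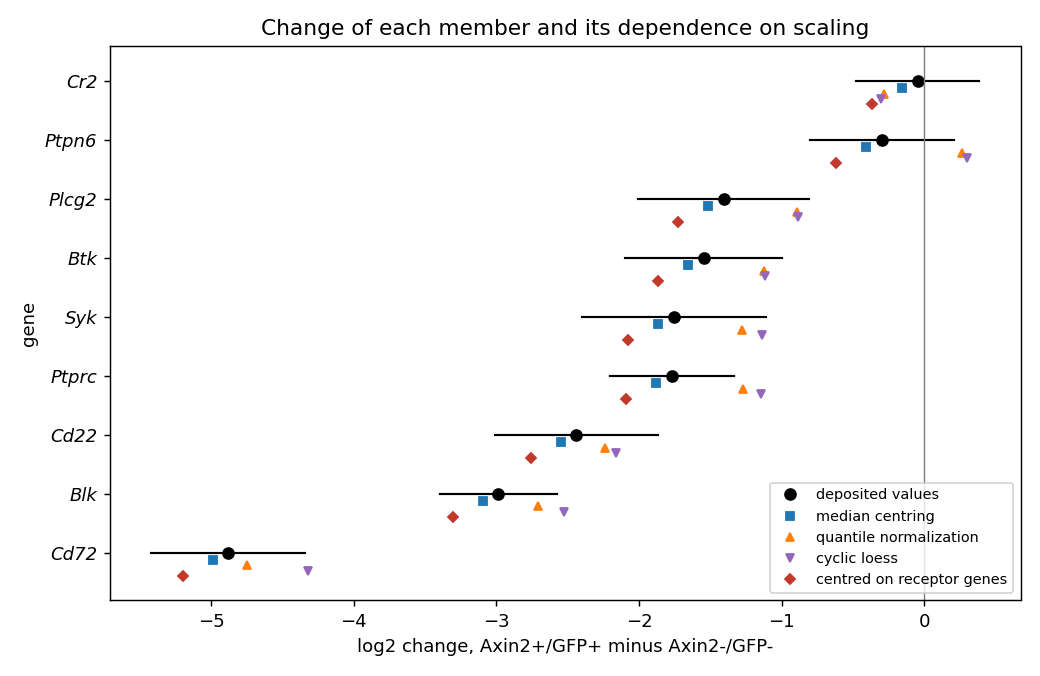
Log2 change of each member, Axin2+/GFP+ minus Axin2-/GFP- (horizontal axis), with its 95% interval on the deposited values (black) and the changes under 4 other scalings (coloured symbols). Cd72, Blk and Cd22 lie lowest under each scaling drawn, and Ptpn6 lies on both sides of 0.

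Other genes of the pathway were read from a list of 91, of which 82 had a feature. Of these, limma called 41 lower in Axin2+/GFP+ cells and 0 higher, against 11.4% and 4.64% of all genes, and 41 were not called. The median log2 change was -0.81, against 0.14 over all genes. At an unadjusted p under 0.05 limma gave 46 lower and 3 higher and the methods' t-test 43 and 2, and after adjustment that test called 16 lower and 0 higher. With the filter on dim genes, limma called 40 pathway genes lower and 1 higher, beside 2325 lower and 562 higher of 11030 genes. The counts by role below stand against these shares, and a few lower genes in a short list say little about a role. For 24 of the 41 lower genes the level in Axin2+/GFP+ cells was reached by over 1% of the receptor genes, and their changes are lower limits of size that cannot be ranked against one another. The group of receptor chains and surrogate light chain held Cd79a, Cd79b and the B-cell precursor genes Igll1, Vpreb1 and Vpreb3. In this group 5 of 5 were lower, with a median of -4.82. Their levels in Axin2+/GFP+ cells were reached by 2.18% to 23.2% of the olfactory and vomeronasal receptor genes. Vpreb3, a chain-like protein of B-cell precursors, had a log2 value of 3.23 ± 0.42 in Axin2+/GFP+ cells and 8.61 ± 0.42 in Axin2-/GFP- cells (SD, n = 3 each). Its change was -5.39 (adjusted p = 2.87e-05 from limma). Cd79a and Cd79b, the signalling chains on which Syk docks, changed by -4.82 and -5.28. Among the co-receptor genes 2 of 3 were lower, Ms4a1 (CD20) by -3.13 and Cd40 by -0.73, while Cd81 had a change of -0.44 and was not called.

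The kinases related to the members were mostly not called. Of 9 further kinases of the Src, Syk and Tec families with Csk, 2 were lower, Csk by -1.45 and Fyn by -0.97. Csk, which switches Src family kinases off and so opposes CD45, fell to 4.41 ± 0.19 in Axin2+/GFP+ cells, against 5.87 ± 0.14 in Axin2-/GFP- cells (SD, n = 3 each; adjusted p = 0.00138 from limma). Fgr, a Src family kinase of myeloid cells, had a change of 0.18 and Zap70, the relative of Syk in T cells, one of -0.08. The level of Zap70 was reached by 63.8% of the receptor genes in Axin2+/GFP+ cells and by 35.5% in Axin2-/GFP- cells.

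Of the adaptors 6 of 12 were lower. Blnk, the scaffold that Syk phosphorylates and on which Btk and phospholipase C gamma 2 meet, had log2 values of 2.16, 2.58 and 2.74 in Axin2+/GFP+ samples and 7.09, 7.35 and 7.70 in Axin2-/GFP- samples. Its change of -4.89 (adjusted p = 1.92e-05 from limma) is a lower limit, since 15.7% of the receptor genes reached its level in Axin2+/GFP+ cells, and its sorts did not overlap. The ubiquitin ligase gene Cblb changed by -2.49 and Pik3ap1, the adaptor BCAP, by -2.23. Among PI3-kinase genes and lipid phosphatases 5 of 7 were lower, including Inpp5d, which encodes the phosphatase SHIP-1 (log2 values of 4.70 in Axin2+/GFP+ and 6.70 in Axin2-/GFP- cells), Pik3ca (-1.46) and Pik3cd (-1.42). Of the Vav, phospholipase and Ras activator genes 3 of 8 were lower, namely Rasgrp1 (-1.99), Plcg1 (-1.21) and Vav2 (-0.90).

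Downstream, 9 of 13 genes of protein kinase C, calcium and transcription factors were lower. Rel, an NF-kappaB subunit of lymphocytes, had a log2 value of 4.93 ± 0.27 in Axin2+/GFP+ cells and 7.68 ± 0.21 in Axin2-/GFP- cells (SD, n = 3 each; change -2.75, adjusted p = 0.000161 from limma). Nfatc3, a calcium-controlled factor, changed by -2.50 and Malt1, which relays the signal to NF-kappaB, by -2.04. Of 11 inhibitory receptors 3 were lower, Siglecg, a relative of Cd22 (-2.47), Pecam1 (-2.23) and Btla (-0.90). Among the other phosphatases and partners of CD45, 5 of 11 were lower. Ptprcap, which encodes a protein bound to CD45, changed by -2.64 (adjusted p = 0.000383 from limma), Ptprj by -1.25 and Dok3 by -1.10. Of the relatives of Cr2 among complement regulators 1 of 3 was lower, Cd55 by -1.63. After quantile normalization and after cyclic loess 4 pathway genes were called higher, the calcium sensor gene Stim1, the calcium channel gene Orai1 and the inhibitory receptors Pirb and Lilrb4a, named here after their values were seen.

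**Figure D3:**
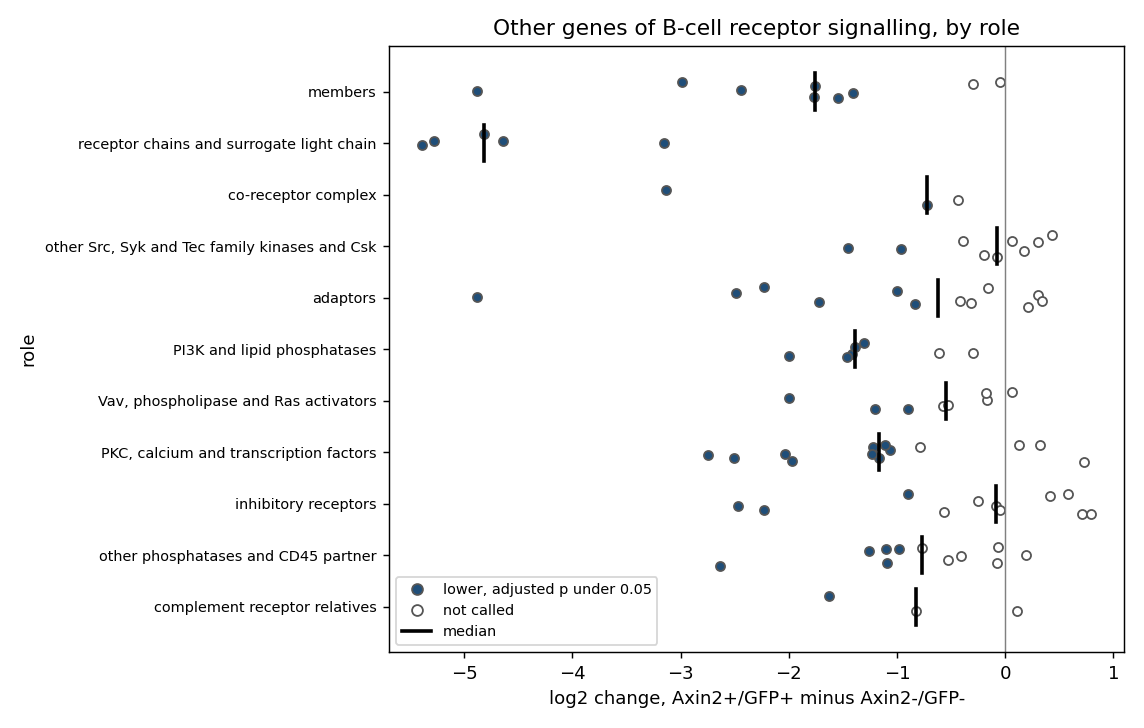
Log2 change, Axin2+/GFP+ minus Axin2-/GFP- (horizontal axis), of the 9 members and the 82 other pathway genes by role, 1 dot per gene, filled where limma called the gene lower and open where it was not called, with a bar for each median. The group of receptor chains and surrogate light chain lies lowest, with a median of -4.82, and the further Src, Syk and Tec family kinases have the median nearest to 0.

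Marker lists of blood cell types differed in direction, and their part in the changes was not tested. The median log2 change was -3.97 for B-lineage markers and 2.06 for neutrophil-lineage markers. Of 12 B-lineage markers measured, 12 were lower, with a mean log2 level over the list of 3.06 to 3.23 in the Axin2+/GFP+ samples and 6.97 to 7.46 in the Axin2-/GFP- samples. Markers of mature B cells were lower in 8 of 9, at 2.81 to 2.89 in Axin2+/GFP+ samples and 4.20 to 4.56 in Axin2-/GFP- samples. These lists share genes with the pathway list, among them the receptor chain and surrogate light chain genes and Ms4a1. Neutrophil-lineage genes went the other way, with 11 of 14 higher and 0 lower, at 8.61 to 8.82 in Axin2+/GFP+ samples and 5.75 to 7.20 in Axin2-/GFP- samples. Neutrophils are among the cells known to use Syk, Btk, Plcg2, Ptpn6 and Ptprc, and these 5 stood at a mean of 4.93 to 4.98 in Axin2+/GFP+ samples and 6.26 to 6.37 in Axin2-/GFP- samples.

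Markers of other cell types were read in the same way, against 11.4% of all genes called lower and 4.64% called higher. Of 14 macrophage and monocyte markers 3 were lower, Ly86 by -2.53, Cd68 by -1.49 and Ccr2 by -1.41. Csf1r, the receptor that macrophages depend on, had log2 values of 3.47 in Axin2+/GFP+ and 4.07 in Axin2-/GFP- cells. It was not called (adjusted p = 0.0838 from limma), although every Axin2+/GFP+ sample lay below every Axin2-/GFP- sample. The list stood at 2.79 to 2.83 in Axin2+/GFP+ samples and 3.11 to 3.35 in Axin2-/GFP- samples. Its median log2 change was -0.06, and 11 of the 14 were not called. Of 12 T and NK cell markers 3 were lower, Il7r (-3.71) and Cd2 (-3.68), both also expressed in B-cell precursors, and Gzma (-1.28). The list stood at 3.05 or more in each of the Axin2+/GFP+ samples and 3.89 to 4.09 in Axin2-/GFP- samples, and Cd3e, which defines T cells, was not called, at 3.27 in Axin2+/GFP+ and 3.48 in Axin2-/GFP- cells. Mast cell, basophil and eosinophil markers were higher in 4 of 8, and erythroid markers were lower in 2 and higher in 1 of 5. Platelet markers were lower in 1 of 5, dendritic and follicular dendritic markers in 1 of 7 and endothelial markers in 1 of 7. The endothelial one was Pecam1, also in the pathway list. With 11.4% of all genes called lower, 1 lower gene in so short a list says little about a cell type. Genes used by all blood cells were lower in 4 and higher in 2 of 12, at 6.73 to 6.80 in Axin2+/GFP+ samples and 7.04 to 7.26 in Axin2-/GFP- samples. Markers of the labelled tissue, suture mesenchyme and osteoblasts, were higher in 4 of 11, at 5.78 to 6.12 in Axin2+/GFP+ samples and 4.84 to 5.21 in Axin2-/GFP- samples. Some were bright in both sorts, such as Col1a2, at 9.91 in Axin2+/GFP+ and 8.19 in Axin2-/GFP- cells. Others were near background. The level of Sp7 was reached by 5.86% of the receptor genes in Axin2+/GFP+ and 5.70% in Axin2-/GFP- cells, and that of Pdgfra by 6.28% and 5.53%.

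**Figure D4:**
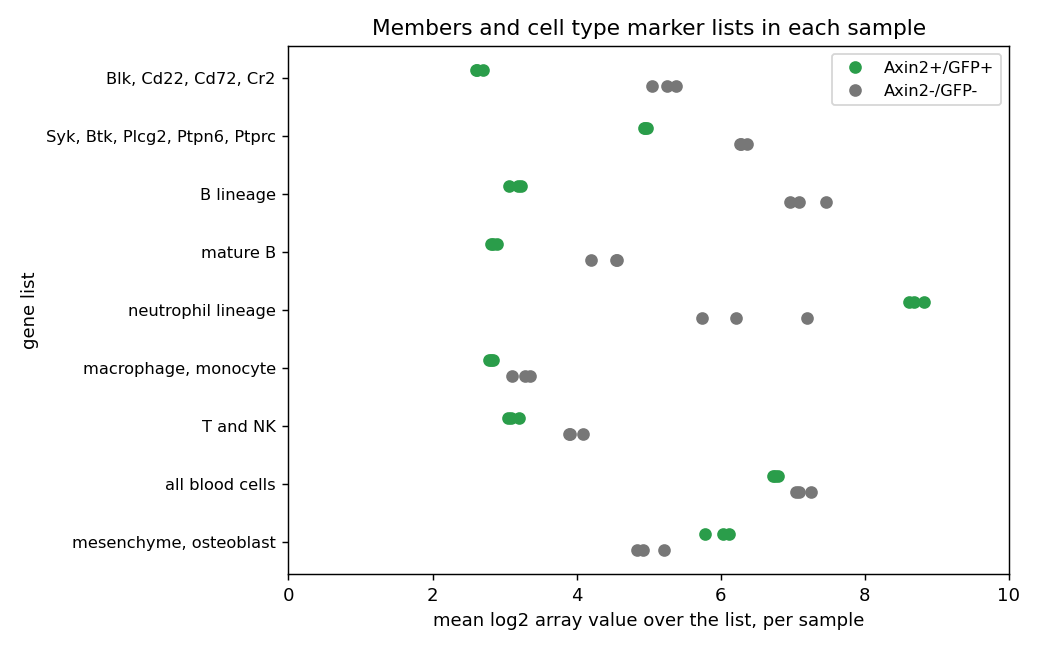
Mean log2 array value over each gene list (horizontal axis) in the 3 Axin2+/GFP+ samples (green, upper row of each list) and the 3 Axin2-/GFP- samples (grey, lower row). The B-cell members and the B-lineage markers lie lower in every Axin2+/GFP+ sample and the neutrophil list lies higher.

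The genes whose pattern over the 6 samples was most like that of Ptprc and Cd22 were found by the root mean square difference of log2 values centred on each gene's mean. For Ptprc these were Otud4 (0.10), AI504432, Ift52, Rpl13, Cdc27, Erbin, Slc25a51 and Pdcd4 (0.15), none of which is in the pathway list. For Cd22 they were Hivep2 (0.12), Gm4759, Foxp1, Dusp10, Man1a, Il21r, Ptprcap (0.21) and Ostc (0.22), of which Ptprcap is in the pathway list. As the choice by likeness fixes, these 16 lay lower in Axin2+/GFP+ cells, with log2 changes of -1.83 to -1.59 for those near Ptprc and -2.70 to -2.18 for those near Cd22.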

How the data were processed

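Total RNA of sorted suture cells was hybridised to Affymetrix whole-transcript arrays, 1 array for each of 3 Axin2+/GFP+ and 3 Axin2-/GFP- samples. The authors deposited log2 values per array feature, made, by the submitters' processing notes, with RMA in a workflow that lists R 3.2.1. Probe level and background step are not stated in these sources. RMA usually ends in quantile normalization, but the upper quartiles of the deposited values differ between the sorts, and whether all 6 arrays were normalized together is not stated. The deposited log2 values were used unchanged, and precision is limited by the number of arrays.

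Of 35557 features, 21789 had 1 symbol in the platform annotation, 1621 had several and were left out, and 12147 are unnamed here. Of the features with 1 symbol, 21698 matched RefSeq by gene identifier and 0 changed name. For 999 genes with more than 1 feature the one with the highest mean was read. Tests used limma 3.58.1 (lmFit, eBayes; R 4.3.3), with Benjamini-Hochberg adjustment over 19938 genes and a threshold of 0.05. The script was tested on simulated data. Single members were also tested by an exact permutation test over samples (scipy 1.17.1).

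The members and the gene lists were chosen with earlier results of these data known. Named genes were all members, up to 3 called genes with the largest change of each pathway role whose sorts did not overlap, up to 2 of each marker list with the smallest p, and the 8 genes most like Ptprc and Cd22. Zap70, Fgr, Cd81, Csf1r, Ccr2, Cd3e, Gzma, Sp7 and Pdgfra were named besides, after their values were seen. Alternatives were a mean-variance trend, the methods' t-test, the replicate number as a block, 4 scalings, a filter on dim genes (mean log2 above 2.64), the mean of a gene's features, array weights and leaving out each sample. Motifs were searched on both strands of RefSeq promoter windows of 300 bases.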

Additional observations from a re-analysis of the deposited data

How the results depend on the processing

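The 7 lower members were tested under 16 alternatives. The call and direction held in 107 of 112 combinations of gene and alternative, the call was lost in 5 and the direction turned in 0, and 0 members were called higher under any of the 16. With the methods' t-test 4 members were lower after adjustment (7 at an unadjusted p under its threshold, against 7 in limma), with 16 pathway genes lower (43 unadjusted) and, over all genes, 518 lower and 211 higher (2747 and 2952 unadjusted). Ptpn6 turned to 0.27 after quantile normalization and 0.30 after cyclic loess, and the cause was not tested. Cr2 ranged between -0.14 and 0.083 when 1 sample was left out (0.083 without Axin2+/GFP+ replicate 3 and 0.029 without Axin2-/GFP- replicate 2), and it had no value under the filter on dim genes.

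All genes called higher numbered 459 with median centring, 210 with centring on the receptor genes and 562 with the filter on dim genes, which tests 11030 genes. All genes called lower numbered 1165 with quantile normalization, 1373 with cyclic loess and 3980 with centring on the receptor genes. Pathway genes called higher numbered 4 after quantile normalization, 4 after cyclic loess, 1 with the filter on dim genes and 1 with array weights. Leaving out 1 sample gave 0 to 2 pathway genes higher, 1376 to 2082 genes lower and 239 to 852 higher over all genes. Without Axin2-/GFP- replicate 1, 2 or 3 the lower genes numbered 1376, 1456 and 1403 and the higher genes 288, 260 and 239, while 7 members stayed lower.

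Whether the replicate numbers pair the samples was not settled by these values. Deviations of same-numbered samples correlated weakly, at 0.03, 0.01 and 0.05, against -0.05 to 0.02 across numbers. Of the 6 samples, 5 correlated best with their own number. With the replicate number as a block (replicate block) 7 members were lower and 0 higher, 37 pathway genes were lower, and over all genes 2201 were lower and 643 higher.

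Signal over background limits Cr2 in both sorts and Blk, Cd22, Cd72 and, narrowly, Btk in Axin2+/GFP+ cells, where over 1% of the receptor genes reached their level. For Plcg2 the share in Axin2+/GFP+ cells was 0.42%. With 3 samples a sort, the exact test cannot go below 0.1.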
